A study of Mus musculus with 14 samples.

Results

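Lum, Dcn, Tnxb, Eln and Fbn1 are 5 genes of the dermal extracellular matrix, followed here in mouse back skin over the first day after ultraviolet (UV) irradiation. They were chosen by name, with earlier results of these data known, 2 for small leucine-rich proteoglycans, 1 for a tenascin and 2 for the elastic fibre. They make up 5 of the 10980 genes in the expression table. The animals were wild type C57BL/6 mice whose back fur had been depilated. Unirradiated skin (no UV; 2 libraries) was compared with skin collected 0.5 h (2 libraries), 2 h (3), 6 h (3), 12 h (2) and 24 h (2) after exposure to a mixed UV source. Total RNA of whole back skin was sequenced, so the samples hold epidermis, hair follicles, dermis, fat and the muscle sheet under the skin. The series asks how skin reprogrammes its transcription after UV damage. Neither the UV dose nor the strandedness of the libraries is stated in the sources at hand. Whether the libraries of 1 group stem from different animals is not said in the labels, and p-values therefore measure the spread between these samples, which may be technical. Unirradiated skin was sampled at 0 h alone, and UV cannot be told apart from the elapsed time, the time of day or the time since depilation.

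Dermal fibroblasts make most of this matrix. Small leucine-rich proteoglycans such as lumican (Lum) and decorin (Dcn) are secreted proteins that bind collagen fibrils and limit their sideways growth. Decorin also binds growth factors of the TGF-beta family. Tenascin-X (Tnxb) is a large glycoprotein that links neighbouring collagen fibrils, and its loss in humans gives a form of Ehlers-Danlos syndrome with stretchy skin. Elastin (Eln) is the crosslinked rubber-like core of elastic fibres. Fibrillin-1 (Fbn1) forms the microfibrils on which elastin is laid down and which hold latent TGF-beta in the matrix, and its mutation in humans causes Marfan syndrome. Long-term sun exposure is known for disordered elastic fibres and loss of collagen in the dermis, while these samples cover a single day.

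In the mouse genome build GRCm38/mm10 (GENCODE M21), Dcn lies on chromosome 10 at 97479609 to 97518143 and Lum at 97565128 to 97572703, both on the plus strand. The pair is 47 kb apart with 0 protein-coding genes between them. Tnxb lies on chromosome 17 at 34670535 to 34719815 on the plus strand, Eln on chromosome 5 at 134702593 to 134747323 on the minus strand and Fbn1 on chromosome 2 at 125300594 to 125507993 on the minus strand. Annotated genes of the opposite strand overlap Tnxb (Gm24389 and Cyp21a2-ps), Eln (Gm30003) and Fbn1 (Gm9913). None of these is in the table, and if the counting did not use strand, reads of these genes and of the 3 members cannot be told apart where they overlap.

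RefSeq promoters (GRCm38.p6) were matched for 2 of the 5 genes, and both are shown because these genes fell after UV at 1 or more times in the comparisons described further on. Each line gives the 250 bases just before the annotated start, 5′ to 3′ on the gene's own strand, with matches to 4 searched motifs in capitals. The Tnxb window is chr17:34670285-34670534, plus strand. The Fbn1 window is chr2:125506439-125506688, minus strand, and it lies inside the longer GENCODE span of Fbn1, which starts further upstream.
Tnxb: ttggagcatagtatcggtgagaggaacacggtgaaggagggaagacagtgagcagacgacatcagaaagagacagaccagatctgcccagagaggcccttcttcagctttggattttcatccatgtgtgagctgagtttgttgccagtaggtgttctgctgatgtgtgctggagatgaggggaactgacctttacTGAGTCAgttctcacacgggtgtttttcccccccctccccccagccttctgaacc
Fbn1: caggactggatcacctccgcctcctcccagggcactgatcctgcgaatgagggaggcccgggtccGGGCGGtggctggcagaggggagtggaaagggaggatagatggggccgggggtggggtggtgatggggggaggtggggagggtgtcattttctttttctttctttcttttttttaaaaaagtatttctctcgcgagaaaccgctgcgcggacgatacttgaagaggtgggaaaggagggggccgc
Both strands were searched for 4 motifs, which are the AP-1 site of the Fos and Jun factors (TGANTCA), the TATA box (TATAAA), the CAAT box (spelled CCAAT) and the GC box (spelled GGGCGG). The Tnxb window holds 1 AP-1 match, TGAGTCA, with 48 bases between its end and the start, and no match to the other motifs. The Fbn1 window holds 1 GC box, with 179 bases between its end and the start, and no other match. Among all 32851 promoter windows, 6.75% hold the AP-1 motif, 12.4% the TATA box, 33.8% the CAAT box and 32.7% the GC box. The GC content was 52.4% for Tnxb, which is the median of all windows, and 59.2% for Fbn1. These matches are letters in a window and were not tested as sites.

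The deposited values are FPKM, which scale fragments to transcript length and to the mapped fragments of a library, so levels of different genes can be compared per length. The columns of the table fall into 3 library sets that differ in number format and header style. The 6 libraries of set 1 cover each time once. The 5 of set 2 cover every time but 0.5 h. Set 3 holds 3 libraries (0.5, 2 and 6 h) and lacks unirradiated skin. The unirradiated library of set 2 has the number format of sets 2 and 3, and its header does not abbreviate the hour. It was placed in set 2 by its correlation, and because the title numbers that lack 12 and 24 h also lack unirradiated skin. Placing it in set 3 was not tried, and statements on sets 2 and 3 depend on this choice. Reads in the listed genes could be recovered for sets 2 and 3, at 12327907 to 15550419 per library. These totals leave out reads outside the listed genes, and depth is unknown for set 1. In those 8 libraries each value of the 5 genes rests on at least 467 to 12524 reads. Libraries of 1 set deviated together from the means of their times, so folds are read within a set, and the main test was limma on log2(FPKM + 1) with the set as a term. The fold changes below are on that scale, which slightly understates changes of the lower genes. A gene is said to have fallen where the limma p, adjusted by Benjamini-Hochberg over all 10980 genes, was under 0.05. Without the set as a term, limma called 0 genes at each of the 5 times, with 333, 660, 615, 494 and 352 genes at an unadjusted p under 0.05 at 0.5, 2, 6, 12 and 24 h. Every call below therefore rests on taking the set into account.

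All 5 genes had their highest level in the unirradiated library, in both sets that have one. Over the 14 libraries the mean level was 238 FPKM for Dcn, 42.1 for Lum, 15.7 for Eln, 8.02 for Fbn1 and 6.56 for Tnxb. By mean FPKM, Dcn ranked 338 and Tnxb 8331 of 10980 genes. Dcn was the highest of the 5 in 14 of 14 libraries, and Eln was above both Fbn1 and Tnxb in 14 of 14. Lum was above Eln in 13 of 14, the exception being the 12 h library of set 1. Fbn1 and Tnxb could not be ordered, since Fbn1 was the higher one in 9 of 14 libraries. Of all genes, 12.9% (1421 genes) had the unirradiated library highest in both sets.

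**Figure D1:**
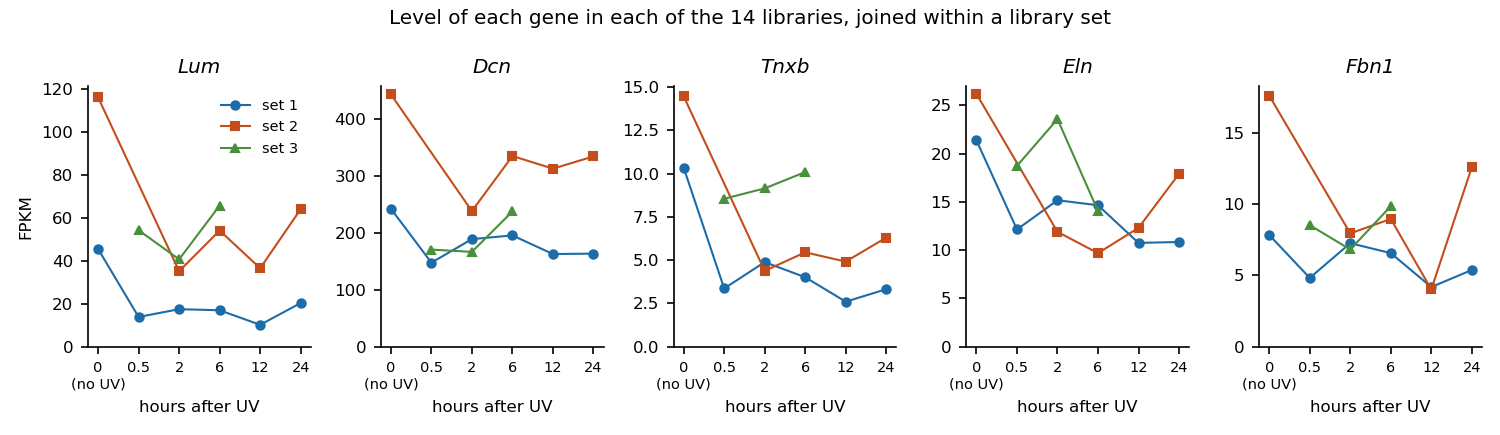
FPKM of Lum, Dcn, Tnxb, Eln and Fbn1 in each of the 14 libraries (y axis, from 0, a scale for each gene) against hours after UV (x axis, times evenly spaced and not to scale). Points are single libraries and lines join libraries of 1 set; the first point of sets 1 and 2 is unirradiated skin and lies above all later points of its set in every panel.

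Lumican had the lowest fitted change of the 5 genes at 0.5, 2 and 12 h. In set 1, Lum was at 45.4 FPKM in unirradiated skin and at 13.8, 17.4, 16.9, 10.2 and 20.3 at 0.5, 2, 6, 12 and 24 h. In set 2 it was at 116 FPKM in unirradiated skin and at 35.1, 54.0, 36.4 and 63.9 at 2, 6, 12 and 24 h. In both sets every irradiated library lay below the unirradiated one, and the 24 h library was the highest of the irradiated ones. Set 3 had 54.1, 40.6 and 65.6 FPKM at 0.5, 2 and 6 h. These values lie above the irradiated libraries of set 1, and 2 of the 3 also lie above the unirradiated library of that set. Without an unirradiated library in set 3, a higher level of that set and a smaller change after UV cannot be told apart. At the same time, Lum was 2.01 to 3.58 times as high in set 2 as in set 1. Within a set the irradiated libraries held 22.4% to 44.7% of the unirradiated level in set 1 and 30.3% to 55.2% in set 2.

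Lum fell at all 5 times. The log2 changes (± SE) at 0.5, 2, 6, 12 and 24 h were -1.48 ± 0.20, -1.60 ± 0.17, -1.19 ± 0.17, -1.85 ± 0.18 and -0.99 ± 0.18, with limma adjusted p of 0.0303, 0.00829, 0.0103, 0.00148 and 0.0226. As folds, the fitted level was 0.278 of the unirradiated one at 12 h and 0.505 at 24 h. Within sets the log2 change at 12 h was -2.05 in set 1 and -1.64 in set 2, and at 24 h -1.12 and -0.85. At 0.5 h, set 1 alone holds both an irradiated and an unirradiated library, with a log2 change of -1.65. The 12 h call held when any 1 of the 14 libraries was left out. The 2 h call was lost without the 0 h library of set 2 (-1.69, limma adjusted p = 0.0585). The 6 h call was lost without either 0 h library or the 6 h library of set 2 (-1.28 to -1.10, limma adjusted p 0.0562 to 0.0756), and the 24 h call without either 0 h or either 24 h library (-1.07 to -0.90, limma adjusted p 0.106 to 0.190). The 0.5 h call was lost without either 0 h, 0.5 h or 12 h library or the 6 h library of set 2 (-1.59 to -1.31, limma adjusted p 0.0616 to 0.385).

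Decorin, the most abundant of the 5 transcripts, had fitted changes nearer to 0 than those of its neighbour Lum at all 5 times. Set 1 had 242 FPKM in unirradiated skin and 147, 189, 195, 162 and 163 at 0.5, 2, 6, 12 and 24 h. Set 2 had 442 FPKM in unirradiated skin and 238, 334, 312 and 334 at 2, 6, 12 and 24 h. Each irradiated library was lower than the unirradiated library of its set, at 60.9% to 80.7% of it in set 1 and 53.8% to 75.6% in set 2. The libraries of set 3 had 170, 166 and 237 FPKM of Dcn at 0.5, 2 and 6 h. Dcn fell at 2 h, by 0.67 ± 0.15 on the log2 scale (limma adjusted p = 0.0466), with -0.36 in set 1 and -0.89 in set 2. At 0.5, 6, 12 and 24 h its log2 changes were -0.74 ± 0.17, -0.32 ± 0.15, -0.54 ± 0.16 and -0.49 ± 0.16, and the limma adjusted p of 0.204, 0.247, 0.0991 and 0.202 did not pass. The 2 h call was close to the threshold. It was lost when any of 11 of the 14 libraries was left out (log2 change -0.72 to -0.52, limma adjusted p 0.0504 to 0.266) and stayed when the 2 h or 6 h library of set 1 or that of 6 h in set 3 was left out. It was also lost under a pseudocount of 0.1, a filter at a mean of 5 FPKM, median-of-ratios scaling and without set 3 (-0.67, -0.67, -0.58 and -0.63, limma adjusted p 0.0517, 0.0560, 0.0865 and 0.0869). At 12 h, leaving out the 2 h library of set 1 brought Dcn under the threshold (-0.54, limma adjusted p = 0.0495).

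Tenascin-X fell at all 5 times, with fitted log2 changes between -1.52 and -1.20. In set 1, Tnxb was at 10.3 FPKM in unirradiated skin and at 3.36, 4.89, 4.01, 2.60 and 3.32 at 0.5, 2, 6, 12 and 24 h. In set 2 it was at 14.5 FPKM in unirradiated skin and at 4.38, 5.45, 4.92 and 6.30 at 2, 6, 12 and 24 h. Every irradiated library lay far below the unirradiated one of its set, at 25.2% to 47.3% of it in set 1 and 30.3% to 43.5% in set 2. Set 3 was higher, at 8.55, 9.15 and 10.1 FPKM at 0.5, 2 and 6 h. Its 3 values are above all irradiated libraries of the other sets, and this set has no unirradiated library to compare them with. The log2 changes were -1.38 ± 0.21, -1.25 ± 0.18, -1.20 ± 0.18, -1.52 ± 0.19 and -1.24 ± 0.19 at 0.5, 2, 6, 12 and 24 h, with limma adjusted p of 0.0460, 0.0110, 0.0117, 0.00326 and 0.00891. Within sets 1 and 2 the log2 change was -1.66 and -1.39 at 12 h and -1.39 and -1.08 at 24 h. For 0.5 h, set 1 alone allows such a value, which was -1.38. In recovered reads, set 2 held at least 1882 reads of Tnxb before UV and 542 to 808 after it. Leaving out 1 library ended the 12 h call once (without the 12 h library of set 1, -1.34, limma adjusted p = 0.0538). The 2 h call was lost without either 0 h library (-1.26 and -1.24, limma adjusted p 0.0691 to 0.0952). The same libraries, and with them the 6 h library of set 2, ended the 6 h call (-1.21 to -1.16, limma adjusted p 0.0644 to 0.103). At 24 h it was either 0 h library or the 24 h library of set 1 (-1.25 to -1.04, limma adjusted p 0.0527 to 0.0818). At 0.5 h the call was lost without either 0 h, 0.5 h or 12 h library, the 6 h library of set 1 or 2 or, in set 3, that of 2 h (-1.41 to -1.37, limma adjusted p 0.0593 to 0.385). It was also lost under a pseudocount of 0.1, the filter, quantile normalization and median-of-ratios scaling (-1.56, -1.38, -1.33 and -1.37, limma adjusted p 0.0718, 0.0635, 0.0978 and 0.0531) and, like that of Lum, without set 3 (limma adjusted p 0.157 and 0.0801).

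Elastin was lower in every irradiated library than in the unirradiated library of its set, and passed the test at 6 h. Set 1 had 21.4 FPKM of Eln in unirradiated skin and 12.1, 15.2, 14.7, 10.8 and 10.8 at 0.5, 2, 6, 12 and 24 h. Set 2 had 26.2 FPKM in unirradiated skin and 11.9, 9.69, 12.3 and 17.9 at 2, 6, 12 and 24 h. The sets differ in their low points, which are 12 h and 24 h in set 1 and 6 h in set 2. Set 3 had 18.7, 23.6 and 14.1 FPKM at 0.5, 2 and 6 h, so its lowest value was at 6 h too. Eln fell at 6 h by 1.03 ± 0.24 on the log2 scale (limma adjusted p = 0.0422), to a fitted level of 0.490 of the unirradiated one. The change within set 1 was -0.52 and within set 2 -1.35. At 0.5, 2, 12 and 24 h the log2 changes were -0.86 ± 0.27, -0.69 ± 0.24, -0.98 ± 0.25 and -0.72 ± 0.25, with limma adjusted p of 0.324, 0.140, 0.0606 and 0.247. The 24 h value lay between -1.10 and -0.34 when 1 library was left out. The 6 h call was lost without either 0 h, 0.5 h or 12 h library, the 2 h library of set 1 or 3 or, in set 2, that of 6 h (-1.17 to -0.86, limma adjusted p 0.0546 to 0.327). It was also lost under median-of-ratios scaling and without set 3 (-0.97 and -0.93, limma adjusted p 0.0547 and 0.0678). The 12 h value crossed the threshold when the 6 h or 24 h library of set 1, the 24 h one of set 2 or the 6 h one of set 3 was left out, each time at -0.98, with limma adjusted p of 0.0223, 0.0365, 0.0361 and 0.0407.

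Fibrillin-1, the microfibril scaffold, had its low point at 12 h in both sets that have this time. In set 1, Fbn1 was at 7.83 FPKM in unirradiated skin and at 4.82, 7.25, 6.56, 4.18 and 5.38 at 0.5, 2, 6, 12 and 24 h. In set 2 it was at 17.6 FPKM in unirradiated skin and at 7.94, 8.96, 4.02 and 12.6 at 2, 6, 12 and 24 h. The 12 h libraries of both sets have close levels although the unirradiated ones differ, so the share left at 12 h was 53.4% in set 1 and 22.8% in set 2. Set 3 had 8.52, 6.82 and 9.85 FPKM at 0.5, 2 and 6 h. Fbn1 fell at 12 h by 1.33 ± 0.27 on the log2 scale (limma adjusted p = 0.0265), with -0.77 in set 1 and -1.89 in set 2. In recovered reads of set 2, this was a step from at least 2367 reads before UV to 522 at 12 h and 1668 at 24 h. At 0.5, 2, 6 and 24 h the log2 changes were -0.74 ± 0.30, -0.68 ± 0.26, -0.52 ± 0.26 and -0.46 ± 0.27, with limma adjusted p of 0.445, 0.167, 0.276 and 0.568. When 1 library was left out, these values spanned -1.10 to -0.45, -1.01 to -0.37, -0.85 to -0.20 and -0.80 to -0.13. The 12 h call was lost without either 12 h library or the 0 h library of set 2 (-1.70 to -0.96, limma adjusted p 0.0611 to 0.265).

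Side by side, 2, 3, 3, 3 and 2 of the 5 genes were called lower at 0.5, 2, 6, 12 and 24 h. None was called higher at any of these times. The 5 genes were chosen with earlier results of these data known, so these counts do not test an excess over all genes. Among all genes, 0.0911% were called lower and 0.00911% higher at 0.5 h, 2.56% and 0.228% at 2 h, and 3.42% and 0.902% at 6 h. At 12 h 3.23% were called lower and 0.574% higher, and at 24 h 1.87% and 0.328%. These shares rest on single libraries, since 306, 474, 418 and 241 genes called in all at 2, 6, 12 and 24 h became as few as 1 (without the 0 h library of set 2), 2 (without that of 6 h in set 2), 51 (without that of 12 h in set 1) and 54 (without that of 24 h in set 2). Lower genes made up 91.8%, 79.1% and 84.9% of all calls at 2, 6 and 12 h, and 72.6%, 60.8% and 68.1% under quantile normalization or 78.1%, 63.7% and 74.5% under median-of-ratios scaling. The median log2 change of the 5 genes was -0.86, -0.69, -1.03, -1.33 and -0.72 at the 5 times. The median of all genes was -0.0076, -0.063, -0.017, -0.027 and 0.015. All 5 comparisons use 1 pair of unirradiated libraries, and calls of a gene at several times do not repeat each other independently. Over all times together, the moderated F test of limma called Lum (adjusted p = 0.00690, rank 26) and Tnxb (adjusted p = 0.0150, rank 86), beside 4.92% of all genes. Dcn, Fbn1 and Eln had F test adjusted p of 0.0869, 0.105 and 0.126. The residual SD of the log2 values was 0.167 for Dcn, 0.207 for Tnxb and 0.213 for Lum, but 0.312 for Eln and 0.337 for Fbn1, against a median of 0.155 over all genes. Eln had a lower fitted value than Dcn at all 5 times, with a wider residual spread once the set was a term. Without the set as a term, the residual SD was 0.368 for Eln and 0.476 for Dcn.

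**Figure D2:**
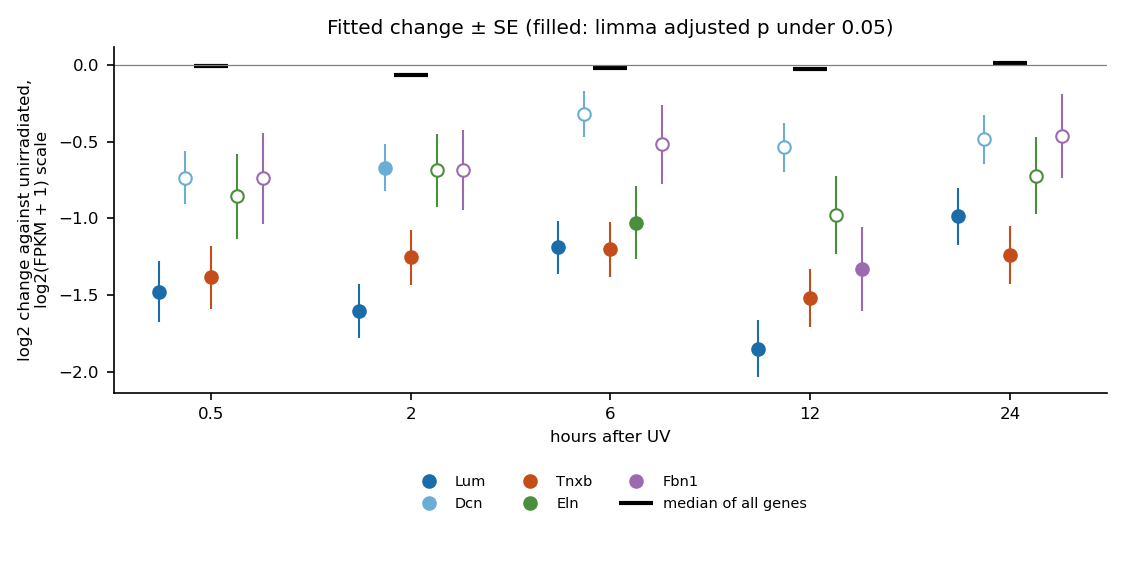
Fitted log2 change against unirradiated skin, on the log2(FPKM + 1) scale with the library set as a term (y axis), for the 5 genes at each time after UV (x axis, hours, evenly spaced). Bars are ± SE, filled points passed the limma test at an adjusted p under 0.05, and black dashes are the median of all 10980 genes; Lum and Tnxb are filled at all 5 times, Dcn at 2 h, Eln at 6 h and Fbn1 at 12 h.

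Between neighbouring times, none of the 5 genes passed in any of 4 steps (0 of 20 tests in limma, with 6 of the 20 at an unadjusted p under 0.05). These 6 were 0, 2, 2 and 2 of the 5 genes from 0.5 to 2, 2 to 6, 6 to 12 and 12 to 24 h. In the same steps 817, 2398, 1766 and 566 of all 10980 genes were at an unadjusted limma p under 0.05. Of all genes, 0% were called from 0.5 to 2 h, 2.09% from 2 to 6 h, 0.674% from 6 to 12 h and 0% from 12 to 24 h. The 2 steps with 0 calls had 817 and 566 genes at an unadjusted p under 0.05, and without the set limma also called 0 genes in them. The times at which Lum and Fbn1 were lowest or highest are therefore described by their values. From 12 to 24 h, Lum had a log2 change of 0.86 ± 0.18 (limma adjusted p = 0.529), with 0.93 in set 1 and 0.79 in set 2. Fbn1 had 0.87 ± 0.27 (limma adjusted p = 0.801), with 0.30 in set 1 and 1.44 in set 2. From 6 to 12 h the changes were -0.66 ± 0.17 for Lum (limma adjusted p = 0.102) and -0.81 ± 0.26 for Fbn1 (limma adjusted p = 0.166). Tnxb had -0.32 ± 0.18 from 6 to 12 h and 0.28 ± 0.19 from 12 to 24 h (limma adjusted p 0.420 and 0.999).

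Lum and Dcn, neighbours on chromosome 10 that both encode collagen-binding proteoglycans, had their highest ratio in the unirradiated library of each of the 2 sets that have one, and the p of this difference missed 0.05 once adjusted. In set 1 the ratio of Lum to Dcn, in FPKM within a library, was 0.188 in unirradiated skin and 0.0937, 0.0925, 0.0868, 0.0626 and 0.124 at 0.5, 2, 6, 12 and 24 h. In set 2 it was 0.262 in unirradiated skin and 0.148, 0.162, 0.117 and 0.192 at 2, 6, 12 and 24 h. In both sets the unirradiated library had the highest ratio and the 12 h library the lowest. Set 3, without an unirradiated library, had 0.318, 0.244 and 0.277 at 0.5, 2 and 6 h. The mean log2 ratio was 0.92 higher in unirradiated than in irradiated libraries of the same set, in a two-sided exact permutation test within sets with p = 0.0333. This is the smallest p that the 30 arrangements allow, and it was 0.0667 adjusted over the 2 ratios tested. The adjusted value could go under 0.05 only if both ratios reached this smallest p. A library's scaling cancels in this ratio. Without regard to the set, the difference was 0.64 (two-sided exact permutation p = 0.264).

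Elastin and its scaffold fibrillin-1 had a ratio with no common direction. The ratio of Eln to Fbn1 in set 1 was 2.73 in unirradiated skin and 2.52, 2.09, 2.23, 2.57 and 2.02 at 0.5, 2, 6, 12 and 24 h. In set 2 it was 1.49 in unirradiated skin and 1.50, 1.08, 3.07 and 1.42 at 2, 6, 12 and 24 h. The unirradiated library was the highest in set 1 but not in set 2, where the 12 h library stood above the rest. In set 3 it was highest at 2 h (3.46) and lowest at 6 h (1.43). The mean log2 ratio was 0.065 higher in unirradiated libraries (two-sided exact permutation p = 0.767, also 0.767 adjusted over 2 ratios).

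**Figure D3:**
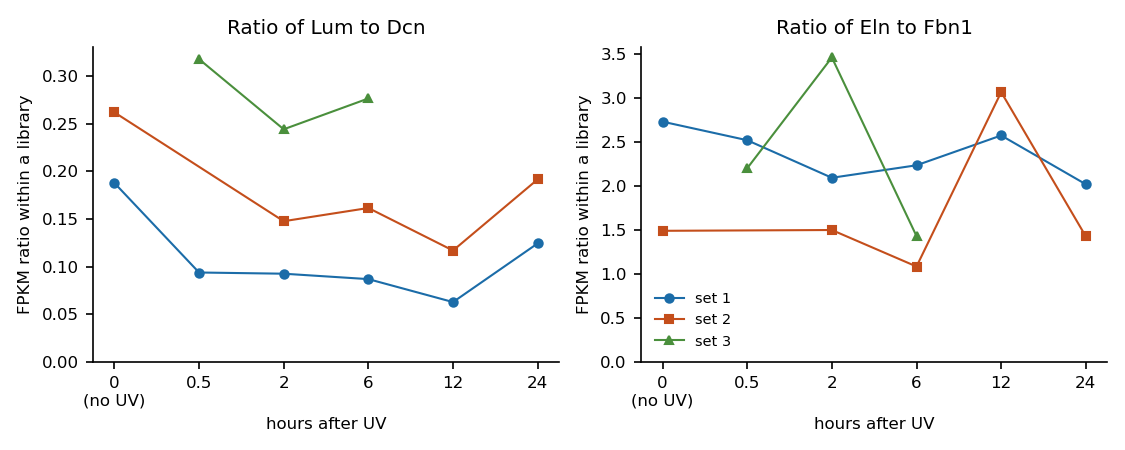
Ratio of Lum to Dcn (left) and of Eln to Fbn1 (right), in FPKM within each library (y axes, from 0), against hours after UV (x axis, evenly spaced), with lines joining libraries of 1 set. The Lum to Dcn ratio starts at 0.188 and 0.262 in unirradiated skin and is lowest at 12 h in both of these sets, while the Eln to Fbn1 ratio has no common course.

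Likeness between time courses was measured over the 14 libraries as the root mean square difference of log2(FPKM + 1), each gene less its mean in the library set, among 9237 genes with a mean of at least 5 FPKM. The points share libraries and sets, so this is a description. Closest to Lum were Thbs2 (0.166; thrombospondin-2, a matrix protein made by fibroblasts), Tnxb (0.223) and Ces2g (0.237), against a median of 0.587 over the genes compared. Closest to Dcn were Aebp1 (0.120; a collagen-binding secreted protein), Trim7 (0.126) and Sepp1 (0.132; selenoprotein P), against a median of 0.299. Tnxb had Csf1r (0.185; the macrophage colony-stimulating factor receptor), Itgbl1 (0.191) and Tgfbi (0.198; a TGF-beta-induced matrix protein) as nearest genes, against a median of 0.508. Those of Eln were Lsp1 (0.152; an actin-binding protein of leukocytes), Trim47 (0.167) and C1qtnf6 (0.180), against a median of 0.417. Those of Fbn1 were Efemp1 (0.165; fibulin-3), Col6a3 (0.169; a chain of collagen VI) and Col5a2 (0.171; a chain of collagen V), against a median of 0.460. Among the 5 genes themselves, Lum and Tnxb were closest (0.223) and Lum and Eln farthest apart (0.426).

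The other small leucine-rich proteoglycans moved in the same direction where they passed. Of 15 listed, 8 were in the table, and 0, 3, 3, 4 and 4 of the 8 fell at 0.5, 2, 6, 12 and 24 h, with 0 rising. Their median log2 changes were -1.02, -0.93, -0.89, -0.93 and -0.81. Under quantile normalization or median-of-ratios scaling, 2, 1 to 2, 4 to 5 and 3 to 4 of the 8 fell at 2, 6, 12 and 24 h. Of all genes, 0.0911%, 2.56%, 3.42%, 3.23% and 1.87% were called lower at the 5 times in the main test. All gene lists were chosen with earlier results of these data known, so their counts do not test an excess over these shares. Aspn (asporin, a collagen-binding proteoglycan) fell at 2, 6, 12 and 24 h, with log2 changes of -1.29 ± 0.22, -0.98 ± 0.22, -1.83 ± 0.24 and -1.55 ± 0.24. Ecm2, a leucine-rich matrix protein, fell at these times too (-1.20, -0.95, -1.69 and -1.69). Podn (podocan) fell at 2, 6 and 12 h (-1.15, -0.98 and -1.12). Ogn (osteoglycin) fell at 12 and 24 h (-1.59 and -1.43), and Fmod, fibromodulin, a collagen-binding relative of Lum, at 24 h (-0.91). Bgn, the close relative of Dcn called biglycan, did not pass at any time, and had -0.74 ± 0.18 at 12 h (limma adjusted p = 0.0510). Prelp and Tsku did not pass either, with -0.41 ± 0.30 and 0.43 ± 0.14 at 12 h (limma adjusted p 0.526 and 0.146).

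Of the other elastic fibre genes 17 of 20 listed were in the table, and 0, 4, 4, 5 and 3 of them fell at the 5 times, with 0 rising. Their medians were -0.54, -0.41, -0.42, -0.60 and -0.26. Under quantile normalization or median-of-ratios scaling, 1, 2, 5 and 2 of the 17 fell at 2, 6, 12 and 24 h. The counts stand beside the shares of all genes given above. Those that fell in the main test were microfibril-associated proteins, fibulins and a lysyl oxidase. Mfap4, which binds fibrillin-1 and tropoelastin, had log2 changes of -1.28 ± 0.18, -1.07 ± 0.18, -1.71 ± 0.19 and -1.74 ± 0.19 at 2, 6, 12 and 24 h, all called. Mfap2, a microfibril component, fell at the same times (-0.84, -0.78, -1.16 and -1.19), as did the lysyl oxidase homologue Loxl2 (-0.88, -0.79, -1.14 and -0.89). Efemp1 (fibulin-3) fell at 2, 6 and 12 h, with -0.75, -0.79 and -1.27, and Fbln2 (fibulin-2) at 12 h, with -0.88. The latent TGF-beta binding proteins Ltbp3 and Ltbp4 and the fibulin Fbln1, the highest genes of the list that were not called, had 0.051 ± 0.12, 0.010 ± 0.16 and -0.14 ± 0.17 at 12 h (limma adjusted p 0.867, 0.981 and 0.719).

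**Figure D4:**
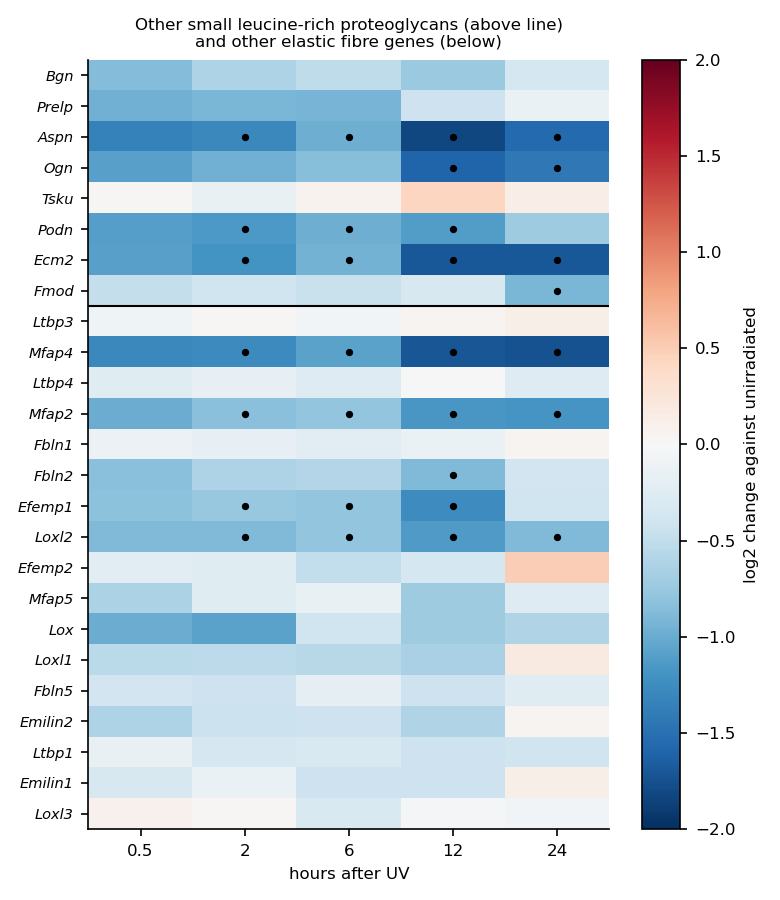
Fitted log2 change against unirradiated skin (colour, blue lower and red higher) of the 8 measured other small leucine-rich proteoglycan genes (above the line) and the 17 measured other elastic fibre genes (below), by hours after UV (x axis). Dots mark a limma adjusted p under 0.05; all dots lie on blue cells, none is at 0.5 h, and Aspn, Ecm2, Mfap4, Mfap2 and Loxl2 carry one at each of the 4 later times.

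Among other genes of matrix assembly and signalling, counts of calls differed by list and time, and stand against the shares of all genes given above. Of 3 other tenascins listed, Tnc (tenascin-C, known from wounds) was in the table and did not pass at any time. Its log2 changes were 0.040, -0.12, -0.59, -0.43 and 0.84 ± 0.29 at the 5 times, with a limma adjusted p of 0.248 at 24 h. Of 12 enzymes that build glycosaminoglycan chains on proteoglycans, 11 were in the table, and the xylose kinase gene Fam20b fell by 0.49 ± 0.11 at 6 h, the 1 call over the 5 times. B3gat3 and Chst14, the other highest genes of that list, had 0.26 ± 0.14 and -0.17 ± 0.14 at 12 h (limma adjusted p 0.393 and 0.561). All 10 fibrillar and associated collagen genes of a list were in the table, and 0, 1, 1, 10 and 4 fell at the 5 times. Col1a2 fell at 2, 6, 12 and 24 h, with log2 changes of -1.38, -1.26, -1.93 and -1.94, and Col3a1 had -1.92 at 12 h. Of 16 TGF-beta pathway genes 15 were in the table, and 0, 3, 1, 1 and 1 fell. Tgfbi fell at 2, 6, 12 and 24 h (-1.07, -1.04, -1.60 and -1.07), and the receptor genes Tgfbr2 and Tgfbr3 fell at 2 h (-0.85 and -0.89). Ctgf (a matrix-associated growth factor, also called Ccn2) rose at 6 h, by 0.76 ± 0.15. The ligand gene Tgfb1 did not pass, with -0.032 ± 0.18 at 12 h (limma adjusted p = 0.952). Over the 6 lists there were 54 calls, none of which reversed in an alternative. The unirradiated library of set 2 carried most of them, since 5 of the 54 were kept without it. Without the 0 h library of set 1, 35 were kept, and without the 12 h library of set 1 or of set 2, 26 each. All 10 collagen calls at 12 h were among those that 1 library could end, with 0 to 10 called when 1 library was left out.

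Fibroblasts, the main source of this matrix, had few markers that passed the test. In whole skin, fewer fibroblasts and less RNA per fibroblast cannot be told apart. All 10 fibroblast markers (such as Pdgfra, Dpt and Cd34) were in the table, none at 0 in any library, and their summed level was 360 to 475 FPKM in unirradiated skin. It was 225 to 395, 248 to 411, 288 to 369, 219 to 260 and 263 to 372 FPKM at 0.5, 2, 6, 12 and 24 h. The sums of 369 to 411 FPKM in set 3 lie above the unirradiated library of set 1. Irradiated libraries held 60.7% to 91.8% of the unirradiated sum in set 1 and 52.2% to 78.4% in set 2. The shares of Dcn lie inside these ranges in both sets, and those of Eln and Fbn1 overlap them. All values of Lum and Tnxb in set 1 and of Tnxb in set 2 lie below these ranges, while Lum reached 55.2% at 24 h in set 2. The sum is weighted to its highest genes, Vim with a mean of 141 FPKM and Thy1 with 41.0. It need not follow the fibroblast share. The median log2 change of the 10 markers was -0.74, -0.64, -0.39, -0.67 and -0.29, and 0, 0, 1, 1 and 0 of them fell. These were Cd34 at 6 h (-0.73) and Dpt at 12 h (-1.01). By sign alone, 10, 9, 10, 9 and 8 of the 10 markers were lower than in unirradiated skin at the 5 times. Dpp4, named here as a marker that hardly moved, had -0.028, -0.0089, -0.033, 0.17 and 0.047. The part of the fibroblast share in the fall of the 5 genes was not tested.

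Markers of other skin cell types did not follow a single course. Of 7 macrophage markers, 6 were in the table, and 0, 4, 1, 3 and 1 fell, with summed levels at 46.7% to 67.4% of unirradiated in set 1 and 35.4% to 94.9% in set 2. The 7 basal keratinocyte markers stood at 72.9% to 85.5% in set 1 and 71.9% to 84.1% in set 2, and 0, 3, 3, 3 and 2 of them fell. Col17a1, a collagen of the hemidesmosome, was among them at 2, 6, 12 and 24 h (-1.20, -1.24, -1.33 and -1.33), Itga6 at 2, 6 and 12 h, Krt15 at 6, 12 and 24 h and Trp63 at 2 h. The summed suprabasal keratinocyte markers stood at 42.25% to 79.16% in set 1 and 43.06% to 109.5% in set 2. Among them, Krt10 fell at 12 and 24 h (-1.45 and -1.66) and Lor at 24 h (-2.63). The hair follicle markers were higher, at 113.3% to 145.6% and 116% to 128.1%, with 1 called higher at 2 h and 1 at 12 h. Of 6 cartilage and tendon markers 2 were in the table, Tnmd and Scx, with summed levels at 55.5% to 95.2% in set 1 and 27.7% to 46.6% in set 2. Tnmd, a tendon membrane protein, fell at 2, 12 and 24 h (-0.96, -1.56 and -1.37). The summed smooth muscle and pericyte markers stood at 87.28% to 132.1% in set 1 and 76.53% to 110.7% in set 2. Of these 6 markers, the smooth muscle myosin gene Myh11 alone fell, at 6, 12 and 24 h (-1.05, -0.93 and -1.20). The part of these cells in the fall of the 5 genes was not tested. All 12 skeletal muscle markers were in the table, none at 0, and summed to 3222 to 5130 FPKM in unirradiated skin against 5705 to 7354 at 2 h and 4736 to 8362 at 6 h. None of the 12 passed at any time, and their median log2 change was 0.77 at 2 h and 0.64 at 6 h. With the mean of these markers as a covariate, limma called 0 of the 5 genes at 2 h and 0 at 6 h, with 0 and 2 of all genes. The log2 changes were then -1.28 ± 0.20 for Lum and -1.10 ± 0.25 for Tnxb at 2 h (limma adjusted p 0.208 and 0.387), and -0.90 ± 0.19 and -1.06 ± 0.24 at 6 h (limma adjusted p 0.204 and 0.227). Dcn then had -0.47 ± 0.20 at 2 h and Eln -1.10 ± 0.33 at 6 h (limma adjusted p 0.666 and 0.294). At 12 and 24 h the members called stayed at 3 and 2 with this covariate.

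**Figure D5:**
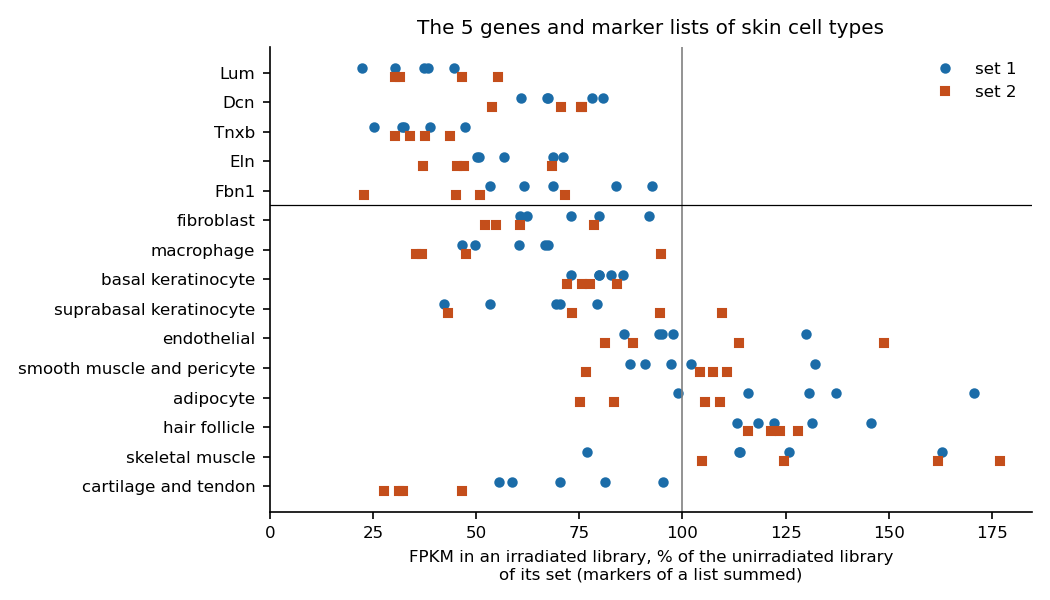
Level in each irradiated library of sets 1 and 2 as a percentage of the unirradiated library of the same set (x axis, FPKM, from 0; the line marks 100%), for the 5 genes and for the summed markers of 10 lists of cell types (rows). Points are single libraries; all points of the 5 genes, the fibroblast, macrophage, basal keratinocyte and cartilage and tendon rows lie below 100%, and those of the hair follicle row above it.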

How the data were processed

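RNA from mouse back skin was sequenced in 14 libraries at 6 time points. The authors deposited 1 table of FPKM for 10980 genes; per the submitters' processing notes, the build was mm10 and the tools included TopHat2 2.1.0 and Cufflinks 2.2.1, whose roles those notes do not state. No source at hand states the annotation or how the listed genes were chosen. Columns were assigned to times by their headers, which carry no replicate number. Library sets were read from number format (at most 6 significant digits in set 1, up to 17 in the others) and header style; the unirradiated library of set 2 was placed by its mean correlation, 0.964 with set 2 and 0.888 with set 3. Deviations from the time-point means correlated at 0.411 to 0.895 in all 28 pairs within a set and at -0.859 to 0.492 in 53 pairs across sets and times. The set was taken as the block, and these values are no independent test of that choice. At a time with 2 libraries their deviations are mirror images, so negative values across sets follow in part from the centring. One of the libraries had itself been placed by correlation. Reads were recovered as whole multiples for 10954 genes in sets 2 and 3 (tolerance 1e-12) for depth alone; they are lower bounds if a common divisor was lost.

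limma 3.58.1 (R 4.3.3) was fitted to log2(FPKM + 1) of all genes with time and set as terms (6 residual degrees of freedom; 8 without the set), an intensity trend and Benjamini-Hochberg adjustment, two-sided, and was tested on simulated data. Set 3 enters the comparisons with unirradiated skin through its other times alone. Ratios were tested by exact permutation within sets. From each gene list the text names genes called, though not always all of them or the first by p, and a few others. For each of the 5 genes it gives the 3 genes most like it. The 5 genes, the lists and the model with the set were chosen with earlier results of these data known. Alternatives were the model without the set, a pseudocount of 0.1, a filter at a mean of 5 FPKM, 2 scalings, no trend, a muscle covariate, and leaving out set 3 or each library.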

Additional observations from a re-analysis of the deposited data

How the results depend on the processing

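The direction of the 25 changes of the 5 genes (5 genes at 5 times) did not reverse in any of 550 recomputed values. Of these, 457 kept their side of the threshold, 88 lost a call and 5 gained one. The library set decided the calls: without this replicate block, limma called 0 of the 5 genes at each of the 5 times and 0 by the F test, against 2, 3, 3, 3, 2 and 2 with it, and 1 gene in all by the F test (493 at an unadjusted p under 0.05). At 0.5 h 1 of the 5 genes was called under a pseudocount of 0.1, a filter at a mean of 5 FPKM, quantile normalization, median-of-ratios scaling or the muscle covariate, and 0 without set 3. The muscle covariate left 0 at 2 h and 0 at 6 h. Leaving out 1 library gave 0 to 2 called at 0.5 h, 0 to 3 at 2 h, 0 to 3 at 6 h, 1 to 4 at 12 h, 0 to 2 at 24 h and 1 to 3 by the F test. The steps between neighbouring times had 0 calls in every alternative.

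The log2 difference in the Lum to Dcn ratio was 0.86 to 0.98 when 1 irradiated library was left out (exact permutation p 0.0400 to 0.0417, the smallest possible there) and 0.64 without the replicate block (exact permutation p = 0.264). That of the Eln to Fbn1 ratio was -0.034 to 0.22, being -0.034 without the 6 h library of set 2 (exact permutation p = 0.958) and -0.0052 without the replicate block (exact permutation p = 0.989). Counts of all genes called moved by over 1.5 times at 2 h, from 306 to 186 with quantile normalization, 128 with median-of-ratios scaling, 160 with the filter, 153 without set 3 and 0 with the muscle covariate. At 0.5 h they went from 11 to 7 with the filter, 5 with the covariate and 2 without set 3. At 6 h they went from 474 to 310 with the filter and 2 with the covariate, and at 12 h from 418 to 224 with the covariate. When 1 library was left out, the counts at all 5 times were highest without the 6 h library of set 3. They were then 25, 558, 960, 814 and 383 genes at 0.5, 2, 6, 12 and 24 h. Without the 6 h library of set 2 they were 0 at 0.5 h and 2 at 6 h. The lowest counts at 2, 6, 12 and 24 h are given further above. Of the 54 calls of the 6 gene lists, recomputed after the data had been seen, 0 were kept without the replicate block, 27 with the covariate, 38 with median-of-ratios scaling and 41 with quantile normalization, and 5 to 54 when 1 library was left out, with 0 reversed. The causes were not tested. With 2 unirradiated libraries, most calls rest on both of them, and depth is unknown in set 1.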
